A study of Yarrowia lipolytica with 12 samples.

Results

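Yl*NAG5* (YALI0_E20207g), Yl*DAC1* (YALI0_E20163g) and Yl*GIG1* (YALI0_F04466g) were followed as 3 of the 6400 genes counted in the dimorphic yeast *Yarrowia lipolytica* growing on N-acetylglucosamine (GlcNAc). They were chosen by gene identifier from their annotated place in GlcNAc metabolism, and each had counts in every one of the 12 RNA-Seq libraries. The libraries form 4 groups of 3. All strains derive from PO1a, a *MATA* strain with mutant *leu2* and *ura3* alleles. Cultures in liquid YNB medium with GlcNAc and uracil were kept at 30°C and harvested near an OD600 of 0.8. Wild-type cells carried either the empty centromeric *LEU2* vector pYL27 or pYL27-4NAG, and both deletion strains, Yl*rep1*Δ and Yl*ngs1*Δ, carried pYL27-4NAG. The 4NAG plasmid holds the open reading frames of Yl*NAG5* and Yl*DAC1* together with the transporter gene Yl*NGT1* and the deaminase gene Yl*NAG1*, each behind the promoter of the actin gene Yl*ACT1*. Every strain kept its own chromosomal Yl*NAG5*, Yl*DAC1* and Yl*GIG1*. A read from a plasmid copy of Yl*NAG5* or Yl*DAC1* therefore cannot be told apart from a read of the chromosomal copy. Yl*GIG1* is not on the plasmid, so its reads come from the chromosomal gene in every group. The mutant strains with 4NAG were described as growing more slowly in GlcNAc medium than wild type, and growth and genotype cannot be told apart here. Yl*NGT1* and Yl*NAG1* were not analysed here.

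Yeasts that live on GlcNAc take the sugar up through the transporter Ngt1, phosphorylate it with the kinase Nag5, remove the acetyl group with the deacetylase Dac1 and then deaminate the product with Nag1 to fructose phosphate, which enters glycolysis. In *Candida albicans* the genes of this route are induced by GlcNAc through the Ndt80-family factor Rep1, which brings the acetyltransferase-like sensor Ngs1 to their promoters. Gig1 is known from *C. albicans* as a cytoplasmic protein whose gene is strongly induced by GlcNAc and whose loss alters sensitivity to a chitin synthase inhibitor. The Yl*GIG1* locus carries that name through a partial similarity to the *C. albicans* protein.

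Counts summed to between 15667204 and 22650213 per library. No source used here states how reads were counted into genes, or whether the triplicates were independent cultures. The p-values therefore reflect only variation among these particular samples, which may be technical. The deleted genes set a limit on the mutant groups. In the libraries labelled Yl*rep1*Δ, the deleted gene Yl*REP1* stood at 26.1%, 13.5% and 82.6% of its mean in wild type with 4NAG, in replicates 1, 2 and 3. In those labelled Yl*ngs1*Δ, Yl*NGS1* stood at 0.0708% (a count of 1), 22.7% and 47.1%. By this measure only Yl*ngs1*Δ replicate 1 had lost its deleted gene almost fully, the other 5 mutant libraries still held its reads, and replicate 3 of Yl*rep1*Δ was close to wild type. Where these reads come from was not tested, so each mutant value is that of the library as labelled and need not be that of a pure deletion strain. Results that rest on single mutant libraries are given with and without them. CPM here means read counts per library size after TMM scaling, and levels are in CPM unless FPKM is named. FPKM, which also divides by gene length, is the unit used wherever 1 gene is set against another.

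In wild-type cells with the empty vector all 3 genes were transcribed strongly, and the order was the same in every library. The deacetylase gene Yl*DAC1* led with 902, 938 and 897 FPKM in replicates 1, 2 and 3. Next came the kinase gene Yl*NAG5* with 584, 564 and 566 FPKM. Yl*GIG1* was lowest with 376, 361 and 401 FPKM. The ranges of the 3 genes did not overlap. Among 6400 genes ranked by FPKM in a library, Yl*DAC1* held ranks 230 to 235, Yl*NAG5* ranks 340 to 350 and Yl*GIG1* ranks 486 to 531. The coding lengths that the deposited FPKM imply are 1227 bases for Yl*DAC1*, 1395 for Yl*NAG5* and 696 for Yl*GIG1*. Replicates of wild type were close. With the vector, the coefficient of variation of the 3 libraries was 0.862% for Yl*NAG5*, 2.91% for Yl*DAC1* and 5.74% for Yl*GIG1*, beside a median of 5.39% over the 5103 genes with a mean of at least 10 CPM.

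The first comparison asks what the 4NAG plasmid adds in cells that still have both regulators. Yl*DAC1* rose 1.20-fold, and Yl*NAG5* and Yl*GIG1* did not pass the test. Yl*DAC1* measured 1084, 1146 and 1099 CPM with the vector and 1277, 1429 and 1285 CPM with 4NAG, with every 4NAG library above every vector library. Its log2 fold change was 0.26 (standard error 0.055, 1.20-fold, 95% interval 1.11 to 1.30) with an adjusted p of 0.00625 in edgeR's quasi-likelihood test with Benjamini-Hochberg adjustment. Yl*NAG5* measured 797, 784 and 789 CPM with the vector and 856, 873 and 847 CPM with 4NAG. These groups did not overlap either, but the log2 fold change of 0.12 (standard error 0.048, 1.09-fold) did not pass (adjusted p = 0.119). Yl*GIG1*, which the plasmid lacks, measured 256, 250 and 279 CPM with the vector and 273, 257 and 256 CPM with 4NAG. Its groups overlapped and its fold was 1.00, with a 95% interval of 0.920 to 1.09 (adjusted p = 0.992).

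A gene was called when the adjusted p was under 0.05 and the change at least 2-fold, the thresholds of the study's methods. Those methods name no test, and the study's own counts of changed genes in both mutants are larger than those called here by edgeR. By the rule used here 0 of the 3 genes were called between the wild-type groups, where 0.182% of 6043 tested genes were called. By adjusted p alone 1 of the 3 passed, beside 10.6% of all genes. The groups did not overlap for 2 of the 3, beside 30.1% of all genes. The rise of Yl*DAC1* was present in each fit with 1 library left out, between 0.20 and 0.29 on the log2 scale. With all 12 libraries in a single fit, which takes its spread mostly from the mutants, its adjusted p was 0.9997.

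**Figure D1:**
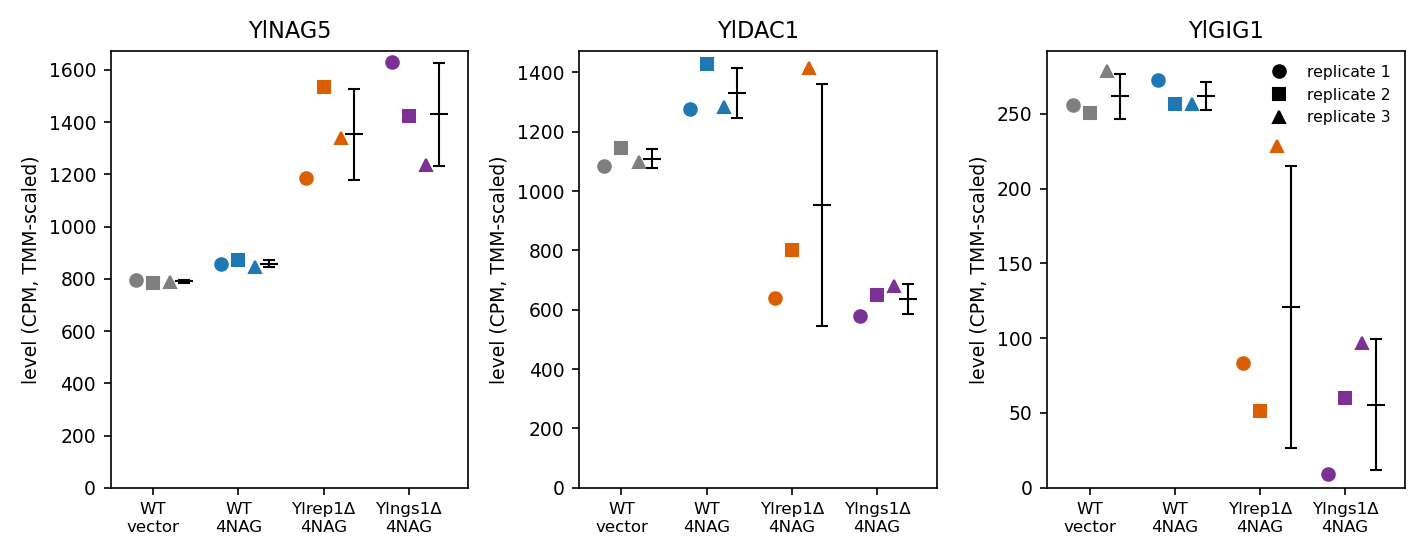
Level of Yl*NAG5*, Yl*DAC1* and Yl*GIG1* in each of the 12 libraries, in CPM after TMM scaling on axes that start at 0. Colours mark the groups, symbols the replicate numbers, and the bars beside each group its mean ± SD (n = 3). The wild-type libraries lie close together, Yl*NAG5* is above them in every mutant library, and Yl*GIG1* runs from 9.42 to 228 CPM among the mutant libraries.

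The libraries labelled Yl*ngs1*Δ were then set against wild type with the same plasmid. The kinase gene Yl*NAG5* rose, the deacetylase gene Yl*DAC1* fell and Yl*GIG1* had the lowest mean of the 4 groups. The values of Yl*NAG5* and Yl*DAC1* in every 4NAG group join reads of the chromosomal and plasmid copies. Which copy changed cannot be told here. The paper's reporter genes behind the Yl*NAG5* and Yl*DAC1* promoters had very low expression in both mutants with 4NAG on GlcNAc. In these bulk samples fewer cells that transcribe a gene and fewer transcripts per cell cannot be told apart. Yl*DAC1* measured 580, 649 and 680 CPM in the libraries labelled Yl*ngs1*Δ, all below the lowest wild-type library with 4NAG at 1277 CPM. It was 2.07-fold lower (log2 fold change −1.05, standard error 0.13, adjusted p = 0.00305, edgeR) and was the one member called in any of the 6 comparisons. Without Yl*ngs1*Δ replicate 1, and likewise without wild-type 4NAG replicate 2, the log2 fold change was −0.997, just short of 2-fold, with adjusted p of 4.36e-05 and 0.0297.

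Yl*NAG5* moved the other way. It measured 1631, 1424 and 1236 CPM in Yl*ngs1*Δ, all above the highest wild-type library with 4NAG at 873 CPM. The rise was 1.68-fold (log2 fold change 0.75, standard error 0.14, adjusted p = 0.0132, edgeR), which passed by adjusted p and stayed under 2-fold. With 1 wild-type 4NAG library left out its adjusted p lay between 0.0756 and 0.0800, and without Yl*ngs1*Δ replicate 2 it was 0.0560. The size of the rise stayed between 0.64 and 0.83 on the log2 scale in all 6 of these fits.

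Yl*GIG1* measured 9.42, 60.0 and 96.6 CPM in Yl*ngs1*Δ replicates 1, 2 and 3, from counts of 182, 1004 and 1570. Every one of these lay below the lowest wild-type 4NAG library at 256 CPM, and replicate 1 lay far below the other two. The fitted level was 4.69-fold lower (log2 fold change −2.23, standard error 0.69, 95% interval −3.87 to −0.59), and with this spread the adjusted p was 0.0678 (edgeR). The call turned on single mutant libraries. Without Yl*ngs1*Δ replicate 1 the log2 fold change was smaller, −1.74, and passed with an adjusted p of 4.36e-05. Without replicate 3 it was −2.92 (adjusted p = 0.0351). Without replicate 2 it was −2.30 and did not pass (adjusted p = 0.172, edgeR). Nor did it pass without wild-type 4NAG replicate 1, 2 or 3 (adjusted p = 0.172, 0.169 and 0.159, edgeR). DESeq2 gave −2.24 (adjusted p = 0.0322) on the full set of libraries. In FPKM rank Yl*GIG1* went from between 517 and 546 in wild type with 4NAG to 4653, 1859 and 1313 in Yl*ngs1*Δ.

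Among the 3 genes 1 was called lower and 0 higher, beside 2.3% and 5.36% of the 6040 genes tested in this comparison. By adjusted p alone 2 of 3 passed, beside 17.8% of all genes. The groups did not overlap for any of the 3, and 42.8% of all genes shared that property.

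In the libraries labelled Yl*rep1*Δ the means lay on the same sides of wild type, and none of the 3 genes passed the test. Yl*NAG5* measured 1186, 1534 and 1341 CPM in these libraries, above every wild-type library. Its log2 fold change against wild type with 4NAG was 0.66 (standard error 0.14, 1.58-fold, 95% interval 1.26 to 1.97) and narrowly missed the threshold (adjusted p = 0.0582, edgeR). The side of the threshold depended on the fit. The adjusted p was 0.0144 without Yl*rep1*Δ replicate 1, 0.0762 without replicate 2 and 0.0248 without replicate 3. Without wild-type 4NAG replicate 1, 2 or 3 it was 0.273, 0.244 and 0.274. DESeq2 gave 0.000349, and the fit with a replicate block 0.113.

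Yl*DAC1* measured 641, 803 and 1416 CPM in Yl*rep1*Δ replicates 1, 2 and 3. The first 2 libraries lay below every wild-type library and replicate 3 lay inside the range of wild type with 4NAG, so the groups overlapped. The log2 fold change was −0.48 (standard error 0.28, adjusted p = 0.334, edgeR). Without replicate 3, the library in which Yl*REP1* stood at 82.6%, it was −0.88 with an adjusted p of 0.0121. Without replicate 1 or 2 it was −0.26 and −0.37 (adjusted p = 0.461 and 0.577, edgeR). With 1 wild-type 4NAG library left out the adjusted p lay between 0.523 and 0.5885.

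Yl*GIG1* measured 83.5, 51.4 and 228 CPM in Yl*rep1*Δ. All 3 were below the lowest wild-type 4NAG library, and replicate 3 was close to it. The log2 fold change was −1.11 (standard error 0.49, 95% interval −2.27 to 0.04) with an adjusted p of 0.217 (edgeR). Without replicate 3 it was −1.96 with an adjusted p of 0.00419. Without replicate 1 or 2 it was −0.91 and −0.75 (adjusted p = 0.288 and 0.365, edgeR). With 1 wild-type 4NAG library left out the adjusted p lay between 0.413 and 0.447. By the full rule 0 of the 3 genes were called in Yl*rep1*Δ, where 1.39% of 6041 genes were called, a share from 64 genes higher and 20 lower that became 1 higher and 0 lower without any single wild-type 4NAG library. By adjusted p alone 0 of 3 passed, beside 2.05%. The groups did not overlap for 2 of the 3, beside 32.7% of all genes.

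The spread of the members among mutant replicates differed by gene. In Yl*rep1*Δ the coefficient of variation was 77.9% for Yl*GIG1* and 42.9% for Yl*DAC1*, but 12.9% for Yl*NAG5*, beside a median of 18.2% over all 5103 genes. In Yl*ngs1*Δ it was 79.1% for Yl*GIG1*, larger than in 99.5% of genes, 13.8% for Yl*NAG5* and 8.07% for Yl*DAC1*, with a median of 17.6%.

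Between the mutants the test found no difference. Yl*NAG5* overlapped almost fully (log2 fold change of Yl*ngs1*Δ over Yl*rep1*Δ 0.08, 95% interval −0.38 to 0.54). For Yl*DAC1* the value was −0.59 (−1.31 to 0.14) and for Yl*GIG1* −1.13 (−3.12 to 0.85), so differences of more than 2-fold lie inside the intervals of both. Each adjusted p was 0.9997, and 0 of 6016 genes, 0.0%, were called by edgeR, with 71 at an unadjusted p under 0.05. DESeq2 and limma also called 0, with 96 and 513 at that level.

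Against wild type with the vector, strain and plasmid both differ and cannot be told apart, and the mutant libraries are those already described. Yl*NAG5* was 1.83-fold higher in Yl*ngs1*Δ (log2 fold change 0.88, adjusted p = 0.00866) and 1.73-fold higher in Yl*rep1*Δ (0.79, adjusted p = 0.0431), both by edgeR. With 1 vector library left out these adjusted p were 0.0544 to 0.0646 and 0.219 to 0.226, and without Yl*rep1*Δ replicate 2 the second was 0.0516. Yl*DAC1* in Yl*ngs1*Δ, with its plasmid copy, was 1.73-fold lower than in vector cells that had only the chromosomal gene (log2 fold change −0.79, standard error 0.11, adjusted p = 0.00483). In Yl*rep1*Δ it was not distinguishable from them (−0.21, adjusted p = 0.686), although without replicate 3 the value was −0.59 with an adjusted p of 0.0373. Without Yl*rep1*Δ replicate 1 or 2 the value was 0.0089 and −0.11 (adjusted p = 0.980 and 0.885, edgeR). Yl*GIG1* gave −2.24 in Yl*ngs1*Δ (adjusted p = 0.0673) and −1.11 in Yl*rep1*Δ (adjusted p = 0.233). Without Yl*ngs1*Δ replicate 1 or 3 the first passed, at −1.74 (adjusted p = 0.000140) and −2.90 (0.0379), by edgeR. It did not pass without Yl*ngs1*Δ replicate 2 (adjusted p = 0.171) or without 1 vector library (0.164 to 0.172). The second passed without Yl*rep1*Δ replicate 3, at −1.93 (0.00563). Without Yl*rep1*Δ replicate 1 or 2 the second was −0.90 and −0.75 (adjusted p = 0.296 and 0.373). With 1 vector library left out its adjusted p lay between 0.457 and 0.468. By the full rule 0 of 3 were called in either, beside 7.28% of 6043 genes for Yl*ngs1*Δ and 1.77% of 6041 for Yl*rep1*Δ. By adjusted p alone 2 and 1 of the 3 passed, beside 18.1% and 2.98% of genes.

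**Figure D2:**
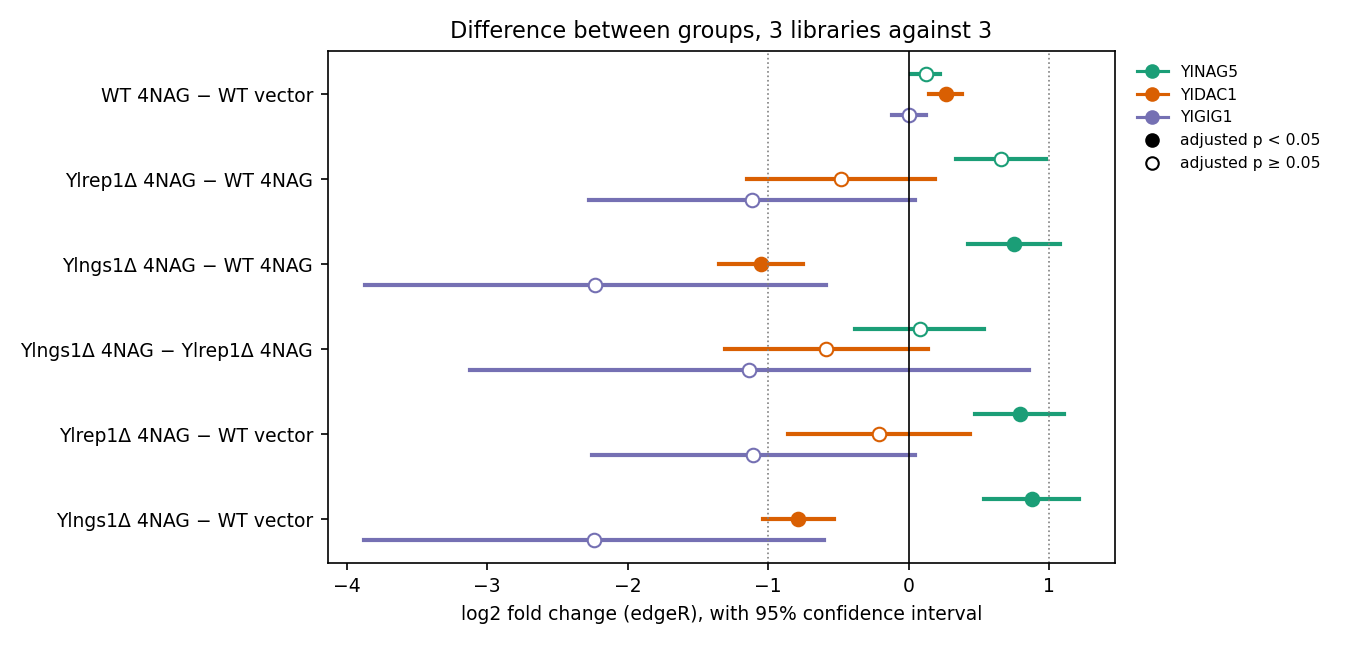
Log2 fold changes of the 3 genes in the 6 comparisons of 3 libraries against 3, with 95% confidence intervals from edgeR; filled points have an adjusted p under 0.05 and dotted lines mark a 2-fold change. Yl*NAG5* lies right of 0 and Yl*DAC1* and Yl*GIG1* left of 0 in each comparison of a mutant with wild type, and the intervals of Yl*GIG1* are the widest, reaching from −3.87 to −0.59 for Yl*ngs1*Δ against wild type with 4NAG.

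Because both plasmid-borne members have the same promoter on 4NAG, their ratio within a library was examined, which needs no scaling between libraries. Wild type had less kinase than deacetylase transcript per length, and most mutant libraries had more. The FPKM ratio of Yl*NAG5* to Yl*DAC1* was 0.647, 0.602 and 0.631 with the vector. It was 0.589, 0.538 and 0.580 in wild type with 4NAG, below every vector library. In Yl*ngs1*Δ it was 2.47, 1.93 and 1.60, so that the kinase transcript exceeded the deacetylase transcript in every library. For Yl*rep1*Δ it was 1.63, 1.68 and 0.833, with replicate 3 nearest to wild type but still above it. The geometric mean was 3.46-fold higher in Yl*ngs1*Δ than in wild type with 4NAG and 2.31-fold higher in Yl*rep1*Δ.

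Measured against the other 2 genes, Yl*GIG1* also lay below its wild-type range. Its FPKM ratio to Yl*DAC1* was 0.376, 0.317 and 0.351 in wild type with 4NAG, 0.230, 0.113 and 0.284 in Yl*rep1*Δ and 0.0286, 0.163 and 0.250 in Yl*ngs1*Δ. Every mutant library was below every wild-type library, so Yl*GIG1* was lower relative to Yl*DAC1* even where Yl*DAC1* was itself low. Relative to Yl*NAG5* the ratios were 0.639, 0.589 and 0.606 in wild type with 4NAG, 0.141, 0.0671 and 0.341 in Yl*rep1*Δ and 0.0116, 0.0845 and 0.157 in Yl*ngs1*Δ. In each of the 5 comparisons of 3 ratios other than that between the mutants the groups were fully separate, and the exact two-sided permutation p was 0.1, the smallest that 3 libraries against 3 allow. None can pass 0.05 in this design, and adjusted over the 18 tests these p were 0.12. Between the mutants the exact p were 0.3 for Yl*NAG5* per Yl*DAC1*, 0.6 for Yl*GIG1* per Yl*DAC1* and 0.5 for Yl*GIG1* per Yl*NAG5*.

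**Figure D3:**
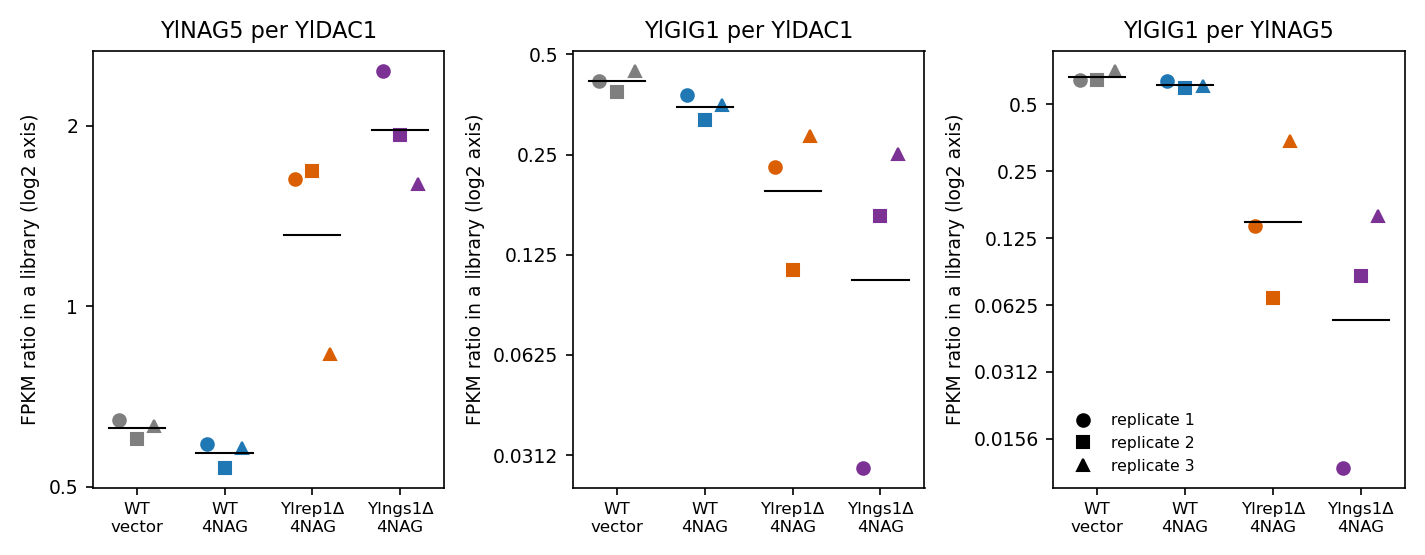
FPKM of 1 gene divided by FPKM of another in the same library, on log2 axes, with the geometric mean of each group as a line. Yl*NAG5* per Yl*DAC1* is at most 0.647 in the 6 wild-type libraries and reaches 2.47 in Yl*ngs1*Δ replicate 1, and both ratios of Yl*GIG1* are lower in each mutant library than in each wild-type library.

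The remaining reads of the deleted gene were set beside the members in the 6 mutant libraries, as percentages of the wild-type 4NAG mean. Yl*GIG1* ran in the same order as the deleted gene within each strain. In Yl*rep1*Δ replicates 1, 2 and 3, with Yl*REP1* at 26.1%, 13.5% and 82.6%, Yl*GIG1* stood at 31.9% (95% exact Poisson interval 30.3 to 33.5, counting error only), 19.6% (18.6 to 20.7) and 87.2% (84.4 to 90.0). In Yl*ngs1*Δ replicates 1, 2 and 3, with Yl*NGS1* at 0.0708%, 22.7% and 47.1%, it stood at 3.60% (3.09 to 4.16), 22.9% (21.5 to 24.4) and 36.9% (35.1 to 38.8). The difference between these percentages was at most 10.2 points, in Yl*ngs1*Δ replicate 3, and between 0.271 and 6.09 points in the other 5 libraries. With 3 libraries a strain no test of this order was made, and the share of all genes that have it was not counted. The order is not particular to Yl*GIG1* in Yl*ngs1*Δ. There YALI0_F04444g stood at 53.2%, 112% and 150% in replicates 1, 2 and 3. Yl*REP1* and YALI0_E20141g also rose in that order, whereas Yl*NDT80* and YALI0_F04532g did not. In Yl*rep1*Δ neither YALI0_F04444g nor YALI0_E20141g ran in the order of Yl*REP1*. YALI0_F04532g ran in its exact reverse order there, at 126%, 131% and 89.8% in replicates 1, 2 and 3. So did YALI0_D25938g (158%, 274% and 142%) and YALI0_F01925g (187%, 253% and 135%), which are described below. Yl*NGS1* and Yl*NDT80* ran in neither order.

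Yl*DAC1* followed the deleted gene less closely. It stood at 43.6%, 48.8% and 51.1% in Yl*ngs1*Δ replicates 1, 2 and 3, a range of 7.55 points while Yl*NGS1* went from 0.0708% to 47.1%. The Yl*rep1*Δ libraries had 48.2%, 60.3% and 106%, highest in the library with most Yl*REP1* reads, but lower in replicate 1 than in replicate 2, where Yl*REP1* was lowest. Yl*NAG5* stood at 190%, 166% and 144% in Yl*ngs1*Δ, in the reverse order of Yl*NGS1*. The Yl*rep1*Δ libraries had 138%, 179% and 156%, highest where Yl*REP1* was lowest. There Yl*NAG5* was higher in replicate 3, with most Yl*REP1* reads, than in replicate 1. The part that remaining reads of a deleted gene play in the members' levels was not tested.

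**Figure D4:**
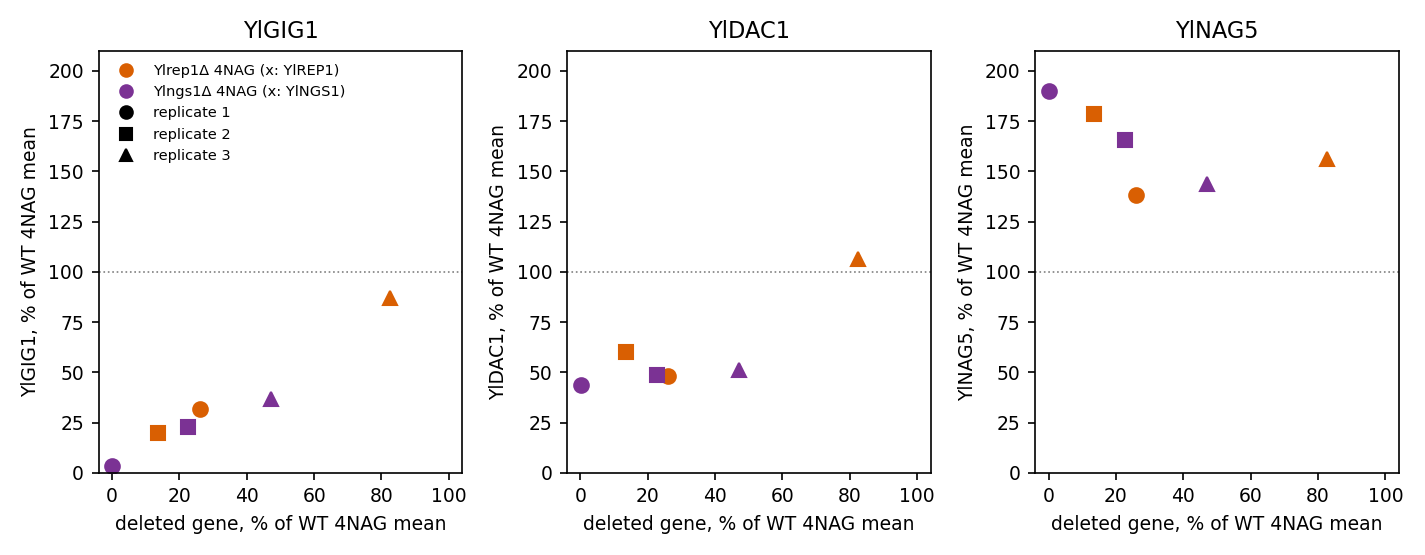
Level of each gene in the 6 mutant libraries against the level of the gene deleted in that strain, both as a percentage of the mean in wild type with 4NAG, which the dotted line marks. Yl*GIG1* goes from 3.60% to 87.2% along the axis of the deleted gene, Yl*DAC1* from 43.6% to 106%, and Yl*NAG5* stays at or above 138%.

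The regulators and other GlcNAc genes were taken from a short list. The regulators that a strain kept did not pass the test. Yl*REP1* stood at 79.8%, 83.5% and 94.6% of its wild-type 4NAG mean in Yl*ngs1*Δ, and Yl*NGS1* at 63.1%, 69.2% and 95.6% in Yl*rep1*Δ. Yl*NDT80*, the paralogous factor, was low throughout, between 9.58 and 14.8 CPM in the 12 libraries. Of these 3 regulators 0 were called in any comparison, where between 0.0% and 7.67% of all genes were called. That count includes each deleted gene in its own strain against wild type with 4NAG. There Yl*REP1* had a log2 fold change of −1.30 (adjusted p = 0.222) and Yl*NGS1* of −2.10 (adjusted p = 0.229, both edgeR). The test thus did not call the deleted genes themselves. The list's other members are a gene similar to the chitin synthase gene *CHS1* of *Saccharomyces cerevisiae* (YALI0_D25938g) and a gene similar to *CHS4* of *C. albicans*, which encodes an activator of chitin synthase (YALI0_F01925g). Chitin is a polymer of GlcNAc. The study listed both because they changed in these samples, so their direction is not independent evidence.

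The *CHS1*-like gene measured 40.2, 36.5 and 43.7 CPM in wild type with 4NAG and 147, 83.6 and 58.9 CPM in Yl*ngs1*Δ, without overlap. The *CHS4*-like gene measured 35.4, 44.5 and 42.0 CPM and 111, 86.3 and 61.7 CPM in the same groups. Both were highest in replicate 1, where Yl*GIG1* was lowest. They were called higher in Yl*ngs1*Δ (log2 fold changes 1.28 and 1.10, standard errors 0.32 and 0.22, adjusted p = 0.0342 and 0.0176, edgeR). With any 1 wild-type 4NAG library left out, or Yl*ngs1*Δ replicate 2, neither passed, and without Yl*ngs1*Δ replicate 1 both were under 2-fold at 0.84 and 0.87. Both in Yl*rep1*Δ had a log2 fold change of 0.94 and missed the threshold (adjusted p = 0.0927 and 0.0776). Over the 5 genes of the list besides the members, 2 were called higher and 0 lower in Yl*ngs1*Δ against wild type with 4NAG, where 5.36% of all 6040 genes were called higher and 2.3% lower. Those 2 are the genes that the study listed for changing in these samples, so their calls follow from the choice and show no enrichment. Counted apart, 0 of the 3 regulators were called, with a median log2 fold change of −0.21 beside 0.016 over all genes. In Yl*rep1*Δ 0 of 5 were called, beside 1.39% of all genes, with a median of −0.40 over the 3 regulators beside 0.011. Between the wild-type groups 0 of 5 were called, beside 0.182% of all genes, with a median of −0.058 over the 3 regulators.

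Yl*DAC1*, Yl*NGS1* and Yl*NAG5* carry consecutive locus tags on chromosome E, so in tag order the gene deleted in Yl*ngs1*Δ lies between both plasmid-borne members. Whether this position bears on their levels was not tested. The outer neighbour of Yl*DAC1*, YALI0_E20141g, had a mean of 129 ± 9.20 CPM (SD, n = 3) in wild type with 4NAG and 177 ± 40.7 CPM in Yl*ngs1*Δ, and did not pass (adjusted p = 0.125, edgeR). Its mean was 150 ± 28.5 CPM in Yl*rep1*Δ. The outer neighbour of Yl*NAG5*, YALI0_E20229g, was nearly silent at 0.697 to 2.88 CPM over the 12 libraries. At that level it was called higher in Yl*ngs1*Δ than in wild type with the vector (means of 2.35 and 0.946 CPM, adjusted p = 0.0300, edgeR), the one such call among the neighbours. On chromosome F, Yl*GIG1* lies between YALI0_F04444g and YALI0_F04532g in tag order. YALI0_F04444g had means of 162 ± 2.55, 120 ± 57.1 and 170 ± 78.6 CPM in wild type with 4NAG, Yl*rep1*Δ and Yl*ngs1*Δ. YALI0_F04532g had 30.1 ± 1.19, 34.9 ± 6.82 and 33.7 ± 0.439 CPM. Of the 12 genes within 3 tags on either side of a member, Yl*NGS1* aside, 0 were called in either mutant against wild type with 4NAG, where 1.39% and 7.67% of all genes were called.

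Genes whose pattern over the 12 libraries was most like that of each member were found by the Pearson correlation of log2 CPM among 5103 genes. The points share libraries, and most of the range comes from the 6 mutant libraries, so the values are descriptions. Each gene was picked for its pattern in these libraries, so a likeness of its group means to those of the member follows from the choice. The genes most like Yl*NAG5* were YALI0_F18084g (r = 0.991), similar to a myo-inositol transporter, YALI0_F11011g (0.991), YALI0_E07898g (0.987), weakly similar to the cyclin-like Clg1 of *S. cerevisiae*, YALI0_F00462g (0.985), similar to the putative channel Aqy3, and YALI0_D01463g (0.984). All 5 had higher means in both mutants than in wild type. YALI0_F00462g, for example, went from 394 CPM in wild type with 4NAG to 1340 in Yl*rep1*Δ and 1584 in Yl*ngs1*Δ.

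Most like Yl*DAC1* were YALI0_D07898g (r = 0.985), YALI0_C06083g (0.981), similar to the 5-aminolevulinate synthase that starts heme synthesis, YALI0_D10175g (0.979), YALI0_A16291g (0.976) and YALI0_D22484g (0.974). YALI0_C06083g had means of 1438, 1775, 1245 and 847 CPM in wild type with vector, wild type with 4NAG, Yl*rep1*Δ and Yl*ngs1*Δ. Its 4 means ran in the same order as the 1110, 1330, 953 and 636 CPM of Yl*DAC1*, the pattern by which it was picked. Yl*NAG5*, the other plasmid-borne member, correlated with Yl*DAC1* at −0.69 and ranked 4396 among the genes compared.

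Yl*GIG1* was most like YALI0_A13013g (r = 0.994), weakly similar to the aspartic protease Yps3 of *S. cerevisiae*, a yapsin of cell wall growth. YALI0_A13013g had means of 93.1, 99.98, 41.0 and 19.6 CPM in the same order of groups, beside 262, 262, 121 and 55.4 CPM for Yl*GIG1*. Next came YALI0_E07051g (0.989), similar to aminotransferases, YALI0_A15576g (0.987), similar to the polyamine transporter Tpo1, YALI0_E17281g (0.982), similar to the quinone oxidoreductase Pst2, and YALI0_B19778g (0.982). Each had its lowest mean in Yl*ngs1*Δ. The genes most opposite to Yl*GIG1* were YALI0_C24354g (r = −0.978), YALI0_D24123g (−0.968), YALI0_F08165g (−0.962), with some similarity to the kinase Cdc7 of *Schizosaccharomyces pombe*, YALI0_F08723g (−0.960) and YALI0_E00176g (−0.954). YALI0_C24354g went from 238 CPM in wild type with 4NAG to 323 in Yl*rep1*Δ and 428 in Yl*ngs1*Δ. Among the members, Yl*GIG1* correlated with Yl*DAC1* at 0.85 and with Yl*NAG5* at −0.84. These ranked only 496 and 4710 among the genes compared, so many other genes had values as strong.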

How the data were processed

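RNA was sequenced from 12 libraries in 4 groups, taken with their replicate numbers from the sample labels. For each library the authors deposited raw read counts and FPKM by gene; the FPKM equal counts divided by coding length and library total. The submitters' processing notes list Cufflinks 2.2.1, TopHat2 2.1.1 and, for this yeast, a mouse build (mm10); no source used here gives the counter or the annotation. A gene missing from a table (24 of 6400, at most 20 counts) was taken as 0. In R 4.3.3, edgeR 4.0.16 compared the counts by its quasi-likelihood test (TMM, filterByExpr), with Benjamini-Hochberg adjustment over all genes tested. Alternatives were DESeq2 1.42.0, edgeR with those size factors, no low-count filter or a mean of 10 counts, all libraries in a single fit, a replicate block, limma 3.58.1 with quality weights, TMM without the GlcNAc genes, raw counts in the ratios, and leaving out each library. The fit was tested on simulated data. Ratios were compared in SciPy by exact permutation.

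Named genes were the members, the regulators, the nearest neighbours by locus tag, called genes of the GlcNAc list, and the 5 most like each member (for Yl*GIG1* also the 5 most opposite) among genes with a mean of at least 10 CPM (log2 with a prior count of 0.5). The members and lists were chosen with earlier results of these data known. Gene roles come from the study's annotation. Replicates differed by 7.27 to 417 in chi-square per degree of freedom, so none was a duplicate. This value ran from 60.4 to 417 within the mutant groups and from 7.27 to 14.2 within the wild-type groups. What limited the precision was not tested.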

Additional observations from a re-analysis of the deposited data

How the results depend on the processing

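Of the 252 refits of the members in 6 comparisons, 227 kept the direction and the side of the threshold, which here joins an adjusted p under 0.05 with a 2-fold change. For Yl*GIG1* in Yl*ngs1*Δ against wild type with 4NAG (−2.23 on the log2 scale, not called), DESeq2 gave −2.24, a fit of all 12 libraries −2.24, limma −2.12 and the replicate block −2.67 (adjusted p = 0.0493), each past the threshold, with −2.92 to −1.74 when 1 library was left out. Against the vector DESeq2 gave −2.24, the 12-library fit −2.24 and limma −2.11, past the threshold, with −2.90 to −1.74 leaving out 1 library. For Yl*GIG1* in Yl*rep1*Δ limma gave −1.38 against wild type with 4NAG and −1.39 against the vector, both past the threshold, with leave-one-out ranges of −1.96 to −0.75 and −1.93 to −0.75. The call of Yl*DAC1* in Yl*ngs1*Δ ranged from −1.12 to −0.997 with 1 library left out. Values near 0 changed sign. For Yl*GIG1* between the wild-type groups, no filter gave −0.0021 and TMM without the GlcNAc genes −0.0025, with −0.034 to 0.049 leaving out 1 library. Yl*NAG5* between the mutants ranged from −0.033 to 0.18, and Yl*DAC1* in Yl*rep1*Δ against the vector from −0.59 to 0.0089. The causes were not tested.

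Pairing of the samples by replicate number was not established. The correlation of same-numbered deviations lay between −0.57 and 0.19, and no comparison had all its samples match best with their own number. Between the wild-type groups replicates 2 and 3 matched best with their own number. There the replicate block gave Yl*DAC1* an adjusted p of 0.00274 in place of 0.00625 (edgeR). With 3 libraries a group this check cannot exclude pairing. The block moved the calls in Yl*rep1*Δ against wild type with 4NAG from 64 higher and 20 lower to 74 and 27, and in Yl*ngs1*Δ from 324 and 139 to 287 and 142. In Yl*rep1*Δ against wild type with 4NAG the calls were 220 higher and 87 lower with DESeq2, 166 and 49 with all libraries in a single fit, and 140 and 73 with limma. Dropping Yl*rep1*Δ replicate 1 gave 150 higher and 144 lower, dropping replicate 2 gave 37 and 10, and dropping replicate 3 gave 269 and 163. Dropping any single wild-type 4NAG library left 1 higher and 0 lower. In Yl*ngs1*Δ leaving out a wild-type 4NAG library gave between 177 and 193 higher and between 71 and 83 lower. Against the vector, the Yl*rep1*Δ calls (92 and 15) were 233 and 58 with DESeq2, 174 and 42 in the single fit, 158 and 50 with limma, 52 and 18 with the block, and 1 and 0 without any single vector library. Dropping the Yl*rep1*Δ libraries 1, 2 and 3 in turn gave 173 higher and 105 lower, 42 and 5, and 280 and 103. The Yl*ngs1*Δ calls (334 and 106) were between 172 and 195 higher and between 64 and 68 lower without a vector library. Between the wild-type groups the single fit called 0 in place of 11 (162 at an unadjusted p under 0.05, edgeR). With raw counts in place of FPKM the ratios kept every direction, since each gene's length is constant. With 3 libraries a group, 2 mutant groups of wide spread and deleted genes still counted in mutant libraries, a result short of the threshold is not evidence of an equal level.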
